A study of Mus musculus with 27 samples.

Results

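Haematopoietic stem and progenitor cells (HSPCs) from bone marrow of mice aged 1 week (1w BM) were compared with HSPCs from the liver of E16.5 embryos (E16.5 FL), so that the comparison spanned birth and the move from liver to marrow. Genes were taken where the expression value reached 1 FPKM (fragments mapped to a transcript, scaled to its length and to the depth of the library) in at least 3 of the 6 libraries, which gave 11398 genes of the 24418 entries in the table. Each group had 3 libraries of bulk RNA from purified HSPCs of the C57BL/6 strain, with no genotype or treatment named in the labels. The other 7 groups of the series (E12.5 PL, whose abbreviation the labels do not explain, E12.5 FL, Perinatal BM and the marrow of animals 3, 4, 6 and 8 weeks old) entered the fit to share the estimate of the spread. FL and BM stand for fetal liver and bone marrow in this field. How the cells were purified, from which sex, and from single or pooled animals, is not stated in these sources. The p-values below therefore measure only the spread between libraries within a group, shared over the 9 groups of the fit. That spread may be technical.

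Haematopoietic stem cells (HSCs) multiply in the fetal liver before birth and then seed the marrow, where they become largely quiescent over the first weeks of life. Fetal HSCs are known for a self-renewal programme built on Lin28b, Hmga2 and the Igf2bp RNA-binding proteins, for lymphocytes made without terminal transferase, and for high levels of imprinted growth genes. HSPC fractions also hold progenitors that already transcribe genes of their future lineage, such as the granule proteases of neutrophils.

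The 6 libraries were alike in scale and separated cleanly by group. Their FPKM summed to 526535 to 595267, and depth, read from the steps between the lowest values and set against the median library, ran from 0.766 in 1w BM library 3 to 1.097 in E16.5 FL library 1. Over genes, which are no independent replicates, the libraries correlated at r = 0.9893 to 0.9921 within 1w BM, at 0.9878 to 0.9913 within E16.5 FL and at 0.9589 to 0.9681 between the groups. Both groups expressed the female transcript Xist, at 45.8 to 72.8 FPKM in E16.5 FL and 43.9 to 110.3 in 1w BM. They also expressed the Y-linked Ddx3y, at 17.2 to 32.6 and 8.68 to 19.1. Every library therefore held RNA of both sexes, and so of more than 1 animal. Within 1w BM the mix differed, with Xist at 110.3, 83.6 and 43.9 and Ddx3y at 8.68, 13 and 19.1 in libraries 1, 2 and 3. Ptprc, the pan-leukocyte antigen CD45, was at 68 to 78.4 FPKM in E16.5 FL and 60.7 to 67.4 in 1w BM.

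Between E16.5 FL and 1w BM, 2869 of the 11398 genes changed (25.2%, limma on log2(FPKM + 1), Benjamini-Hochberg adjusted p under 0.05). Of these, 1370 were higher in 1w BM (12%) and 1499 were lower (13.2%), with a median absolute log2 difference of 0.492 over the called genes. Differences of at least 2-fold were found for 371 genes (3.25%), 159 higher (1.39%) and 212 lower (1.86%). The median difference over all genes was 0.01, so the scale of the groups was level. Counts of list members below are to be read beside the shares of all genes, 12% higher and 13.2% lower. The lists overlap, as 69 genes belong to 2 or more of them and count in each, so the counts are not independent. Where a list below has no member called in a direction by limma, it also has none there at an unadjusted p under 0.05, except where stated. The libraries of the groups did not overlap for 5039 genes (44.2%), 2554 with 1w BM above (22.4%) and 2485 with it below (21.8%). In the filter, 10611 genes reached 1 FPKM in all 6 libraries, of which 1211 were higher and 1330 lower. Another 79 passed through 1w BM alone and 114 through E16.5 FL alone, and these had to differ for that reason. Among the genes described below, Dntt, Egr2, Gp5 and Gzmb passed through 1w BM alone, and Afp, Alb, Igf2, Igf2bp1, Irf4, Lef1, Pax5, Pou2af1, Slc4a1, Stfa2 and Vpreb1 through E16.5 FL alone. At the edge of the filter, 103 genes had a third-highest value of 1 to 1.1 FPKM and 129 genes one of 0.9 to 1. Leaving out 1 library at a time changed the count of called genes to between 2010, without E16.5 FL library 1, and 2360, without 1w BM library 2. The genes called higher fell to 881 without 1w BM library 3, and the genes called lower to 988 without E16.5 FL library 1.

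**Figure D1:**
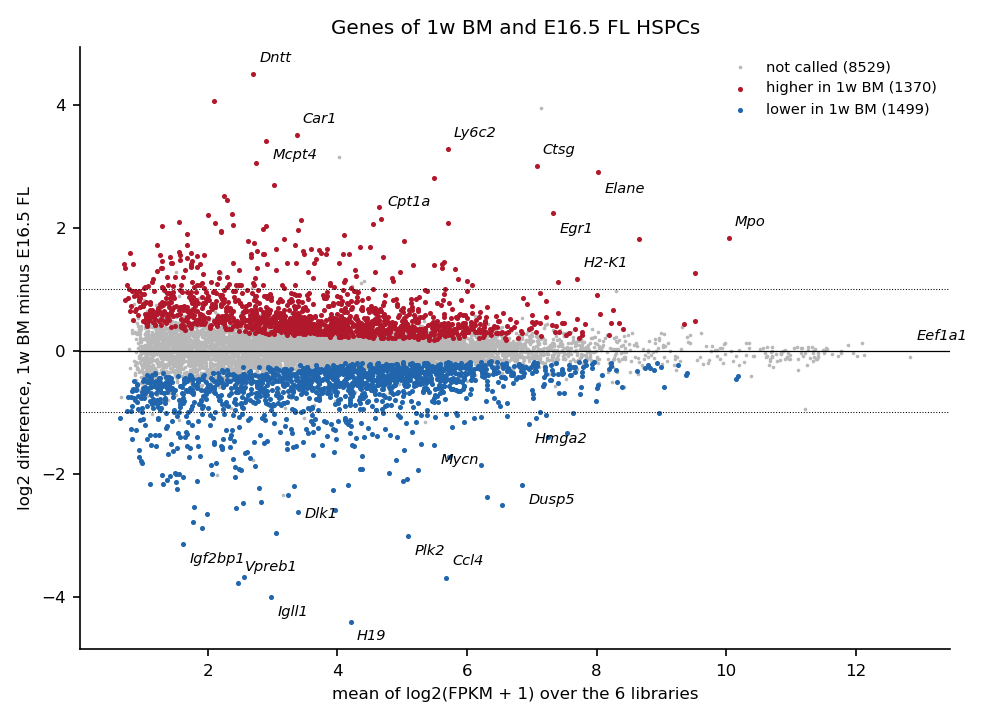
Each point is 1 of the 11398 genes, placed by its mean log2(FPKM + 1) over the 6 libraries and by its log2 difference, 1w BM minus E16.5 FL. Red points are the 1370 genes called higher in 1w BM, blue points the 1499 called lower and grey points the 8529 not called, and dotted lines mark a log2 difference of 1 either way. Dntt lies highest and H19 lowest, while Eef1a1, the most abundant gene, lies near 0.

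The same genes were then measured in libraries outside this comparison, namely 8w BM against E12.5 FL, a wider interval of the same passage from liver to marrow. Of the 159 genes at least 2-fold higher in 1w BM, 149 (93.7%) were also higher in 8w BM, 131 of them called, and 2 were called in the opposite direction. Of the 212 genes at least 2-fold lower, 164 (77.4%) were also lower in 8w BM, 124 of them called, and 20 were called higher. Over all 11398 genes, 55.2% changed in that comparison, 28.9% higher and 26.3% lower in 8w BM, and 51.5% lay above 0.

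The gene with the largest rise was Dntt, which encodes terminal deoxynucleotidyl transferase, the enzyme that adds untemplated bases at antigen receptor joins. It was at 0.563, 0.364 and 0.204 FPKM in E16.5 FL libraries 1, 2 and 3 and at 32.8, 32.9 and 24.4 in 1w BM libraries 1, 2 and 3 (library values are given in this order throughout). All 1w BM libraries lay far above all E16.5 FL libraries, and the log2 difference was 4.49 (SE 0.188, adjusted p = 6.045e-14). Dntt passed the filter through 1w BM alone, so it had to differ, and its p adds nothing to that. Most other called genes of early lymphoid priming were lower in 1w BM. Among 18 tested genes of that list, 3 were higher and 7 lower, with a median log2 difference of -0.19. Il7r, the interleukin-7 receptor chain, was lower by a log2 difference of -1.03 (adjusted p = 0.0008761). Ccr9, a thymus-homing chemokine receptor, was lower by -1.95 (adjusted p = 6.161e-06), and Notch1, the receptor that starts the T lineage, by -0.77 (adjusted p = 0.001228). Flt3, the cytokine receptor that marks multipotent progenitors, was at 151, 146 and 147 FPKM and then at 136, 132 and 110.2, which did not pass the test (adjusted p = 0.2394).

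Committed B lineage transcripts were low in 1w BM HSPCs and well above that level in E16.5 FL. Of 16 tested B lineage genes, 14 were lower in 1w BM and 1, Cd72, was higher, with a median log2 difference of -2.15. Igll1, a chain of the surrogate light chain of the pre-B cell receptor, was at 40.7, 53.7 and 12.8 FPKM in E16.5 FL and at 0.83, 0.731 and 1.4 in 1w BM (log2 -4.01, adjusted p = 2.048e-06). Vpreb1, its partner chain and near neighbour in the genome, was at 29.9, 34.5 and 6.91 FPKM and at 0.575, 0.303 and 0.622 (log2 -3.78, adjusted p = 1.604e-06). In each case E16.5 FL library 3 was far below the other fetal libraries and still above every 1w BM library. Vpreb3, another gene of the list, was lower by a log2 difference of -3.69 and the signalling chain Cd79a by -2.35. The transcription factors of the lineage moved with them. Pax5, which fixes B cell identity, was at 6.15, 8.25 and 2.24 FPKM and at 0.0798, 0.763 and 0.345 (log2 -2.13, adjusted p = 3.804e-05), and Ebf1, which acts before it, was at 12.3, 11.9 and 4.32 and at 2.05, 1.59 and 1.92 (log2 -1.77, adjusted p = 0.0002124). The coactivator Pou2af1 was lower by -2.66, Lef1 by -2.17 and Irf4, a regulator of light chain genes, by -2.01. E16.5 FL library 2 was the highest fetal library for 13 of the 16 genes and library 3 the lowest for 13, so the genes of the list varied together between the fetal libraries. Of the 16, 5 passed the filter through E16.5 FL alone, and among the other 11 genes 9 were lower. Leaving out an E16.5 FL library, which also removes genes from the filter, left 9, 9 and 8 of 11 tested genes lower without libraries 1, 2 and 3. In bulk RNA, fewer cells of a type and less RNA per cell cannot be told apart, here and in every list below.

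Genes of the primary granules of neutrophils, made at the promyelocyte step, held 4 of the 5 largest absolute rises of the called genes. Of 15 tested genes of the primary granule list, 11 were higher in 1w BM and 1 was lower. The median log2 difference was 1.82, against 0.01 over all genes. The list also holds genes that are not granule components, among them the transcription factors Cebpa, Cebpe and Gfi1 and the chaperone Calr. Each fit that left out a library called 11 genes of the list higher. Mpo, myeloperoxidase, had the largest absolute rise of the called genes, from 729.9, 544 and 436 FPKM to 1707, 1784 and 2545 (log2 1.83, SE 0.301, adjusted p = 9.168e-05). Elane, neutrophil elastase, went from 188, 87.2 and 51 FPKM to 583, 623 and 983 (log2 2.90, SE 0.536, adjusted p = 0.0003114). Ctsg, the protease cathepsin G, went from 78.7, 42.5 and 30.3 FPKM to 327, 303 and 555 (log2 3.00, SE 0.36, adjusted p = 1.985e-06). For all of these the groups did not overlap, E16.5 FL library 1 was the highest fetal library and 1w BM library 3 the highest of the marrow libraries. That ordering was general, since 1w BM library 3 was the highest marrow library for all 15 genes and E16.5 FL library 3 the lowest fetal library for 14. Prtn3, proteinase 3 and the neighbour of Elane, was higher by a log2 difference of 1.82 (adjusted p = 0.0002679), and Ms4a3, a membrane protein of granulocyte and monocyte progenitors, by 2.81 (adjusted p = 4.31e-05). Cebpe and Cebpa, transcription factors counted among the 15, rose too. Cebpe, a factor of granulocyte maturation, went from 4.27, 2.51 and 1.62 FPKM to 11.5, 11.1 and 18.3 (log2 1.97, adjusted p = 2.87e-05). Cebpa, which commits progenitors to the granulocyte and monocyte branch, went from 20.6, 19.1 and 15.2 to 39.5, 39 and 49.3 (log2 1.18, adjusted p = 4.91e-06). The 1 gene called lower was Lyz2, lysozyme, at 123, 111 and 101 FPKM and then at 80.3, 80.6 and 81.9 (log2 -0.45, adjusted p = 0.02155), a call that was kept in only 1 of the 6 fits that left out a library.

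The promoters of 4 of these protease and peroxidase genes are shown because the genes rose together and each window holds the letters GAGGAA, an ETS form bound by PU.1, the myeloid factor encoded by Spi1. Capitals mark GAGGAA in sequences from RefSeq (build GRCm38.p6, all bases upstream of the RefSeq start and outside annotated exons, written 5′ to 3′ on the gene's strand). The Prtn3 window lies inside a longer annotated form of its gene. The windows are chr10:79886062-79886246 on the plus strand for Elane, chr10:79879417-79879613 on the plus strand for Prtn3, chr14:56102575-56102824 on the minus strand for Ctsg and chr11:87793534-87793580 on the plus strand for Mpo.
Elane: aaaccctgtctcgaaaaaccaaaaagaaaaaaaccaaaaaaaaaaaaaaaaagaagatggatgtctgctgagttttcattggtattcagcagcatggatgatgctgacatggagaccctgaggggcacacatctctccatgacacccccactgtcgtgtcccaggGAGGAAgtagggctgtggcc
Prtn3: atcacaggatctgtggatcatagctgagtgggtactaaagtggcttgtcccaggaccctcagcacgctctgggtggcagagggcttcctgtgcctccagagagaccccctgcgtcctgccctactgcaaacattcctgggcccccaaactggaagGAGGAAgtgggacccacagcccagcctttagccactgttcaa
Ctsg: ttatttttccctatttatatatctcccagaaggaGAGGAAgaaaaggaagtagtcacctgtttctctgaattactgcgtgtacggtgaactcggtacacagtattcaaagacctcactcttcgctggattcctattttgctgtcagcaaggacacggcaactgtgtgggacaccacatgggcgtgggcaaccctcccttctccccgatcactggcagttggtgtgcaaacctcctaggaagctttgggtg
Mpo: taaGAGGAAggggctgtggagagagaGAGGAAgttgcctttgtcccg
The first base of the match lay 85 bases before the start of Elane, 95 before that of Prtn3, 216 before that of Ctsg, and 247 and 224 before that of Mpo. GAGGAA was searched on both strands over the 300 bases around each start. It was found in 5 of 13 promoters of the primary granule list (38.5%) and in 8 of 14 B lineage promoters (57.1%). The share was 26.9% of the 9255 promoters matched to genes of the comparison and 28.3% of all 27025 RefSeq promoters. A match is a description of the sequence and not a binding site, and this motif was chosen after the genes were known.

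Genes outside that list were also among those named for the size of their rise. Ly6c2, which encodes the monocyte antigen Ly6C, went from 30.7, 14.5 and 8.48 FPKM to 136, 137 and 224 (log2 3.28, adjusted p = 3.167e-05). Hk3, a hexokinase of myeloid cells, went from 3.1, 2.37 and 1.35 to 16.4, 17.9 and 25.5 (log2 2.69, adjusted p = 1.82e-07). Galnt6, a glycosyltransferase, went from 1.52, 0.898 and 0.937 to 10.2, 10.3 and 11 (log2 2.45, adjusted p = 3.432e-12). In these the groups stood far apart, and Galnt6 varied little within a group. Plac8, a protein abundant in early myeloid cells, was high in both groups and rose from 611, 504 and 350.4 FPKM to 1013, 1028 and 1419 (log2 1.26, adjusted p = 8.578e-05). Rab44, a granule-associated GTPase, was higher by a log2 difference of 2.33 (adjusted p = 1.39e-07) and the receptor Trem3 by 2.22 (adjusted p = 0.0002892). Of 19 tested monocyte and macrophage genes, 3 were higher and 6 lower, with a median of -0.16. When a library was left out, 1 to 4 were higher and 2 to 5 lower (1 higher without E16.5 FL library 3, 2 lower without E16.5 FL library 1 or 2). Among the 18 that did not pass the filter through 1 group alone, 3 were higher and 5 lower, with a median of 0.1.

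Genes of the later steps of neutrophil maturation changed in both directions. Of 17 tested, 2 were higher and 7 lower in 1w BM, and the other 8 were not called. The median difference was 0.26, and 9 of the 17 lay above 0. Among the 16 that did not pass the filter through 1 group alone, 2 were higher and 6 lower, with a median of 0.36. The summed level of all 21 genes of the list in the table was 432 to 1082 FPKM in E16.5 FL and 799 to 1255 in 1w BM. Ltf, lactoferrin of the secondary granules, was at 10.5, 7.03 and 5.34 FPKM in E16.5 FL and at 0.911, 1.29 and 1.06 in 1w BM (log2 -2.01, adjusted p = 6.76e-09). Stfa3, a stefin protease inhibitor of mature granulocytes, was at 18.9, 15.7 and 9.08 and at 1.55, 2.24 and 2.93 (log2 -2.23, adjusted p = 1.144e-06), and Stfa2 beside it was lower by -2.26. Lcn2, lipocalin 2, was lower by -1.75 (adjusted p = 0.002043). S100a8, a calcium-binding protein of neutrophils and monocytes, was at 381, 203 and 145 FPKM and at 407, 339 and 608, and these overlapping groups did not pass the test (log2 0.96, adjusted p = 0.1853). Fcnb, ficolin B, which is made earlier than lactoferrin, was higher by 1.65 (adjusted p = 0.0004042), and Anxa1, annexin A1, by 1.40 (adjusted p = 2.645e-08). E16.5 FL library 1 was the highest fetal library for all 17 genes. Without it, 4 of 16 tested genes were called higher and 5 lower, with a median of 0.67, and without E16.5 FL library 3 the median was -0.03.

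**Figure D2:**
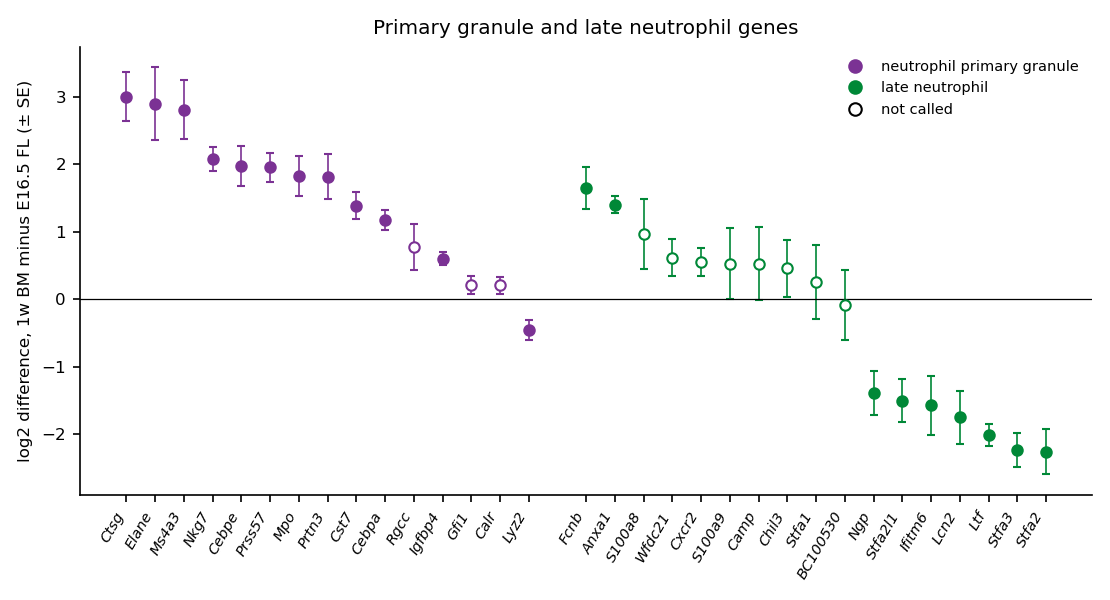
Each point is the log2 difference, 1w BM minus E16.5 FL, of 1 gene with its standard error. Shown are the 15 genes of the primary granule list, transcription factors included, and the 17 late neutrophil genes, and open points are genes not called. All genes of the primary granule list but Lyz2 lie above 0, while the late genes divide, with Ltf, Stfa2 and Stfa3 near -2.

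Several proteases of mast cells and basophils were higher in 1w BM. Of 13 tested mast cell genes, 10 were higher and none was lower (median log2 difference 1.62). Mcpt4, a chymase of connective tissue mast cells, was at 3.31, 1.46 and 0.134 FPKM and at 15.6, 25.9 and 31.5 (log2 3.41, adjusted p = 3.072e-07). Mcpt8, the basophil protease, went from 1.44, 0.967 and 1.64 to 14.2, 16.2 and 26.8 (log2 3.05, adjusted p = 8.303e-10), and Prss34, another basophil protease, was higher by 2.51 (adjusted p = 3.728e-08). The 1w BM libraries lay above the E16.5 FL libraries for each. Of 12 tested eosinophil and basophil genes, 5 were higher and 2, the chemokines Ccl3 and Ccl4, were lower (median 0.77). The summed level of all 16 genes of the list in the table was 420.4 to 454.5 FPKM in E16.5 FL and 112 to 177 in 1w BM. Ccl3 and Ccl4 made up most of the fetal sum, so its fall does not describe the granule genes of the list. Cpa3, the mast cell carboxypeptidase, was at 15.3, 7.95 and 3.89 FPKM and at 27.1, 32.1 and 36.8 (log2 1.87, adjusted p = 0.0005156), whereas the Perinatal BM libraries, which are not part of this comparison, averaged 623 ± 282 (SD, n = 3). Of the 13, 4 passed the filter through 1w BM alone. Among the other 9 genes 6 were higher, and without any 1 of the 3 marrow libraries 6 of 9 tested were higher. Ctsg, Mcpt4 and Mcpt8 lie in 1 stretch of neighbours with Cma1 and Gzmb at chr14:55941451-56262260, all at least 2-fold higher. Cma1, a further chymase, was at 11.1, 4.18 and 0.781 FPKM and at 10.3, 19 and 20.1 (adjusted p = 0.004884), and without E16.5 FL library 3 its call and that of Gzmb, a granzyme, were lost. Closely related proteases can share reads, and how these were divided is not given in the sources used here.

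Red cell and platelet genes changed in both directions. Of 23 tested erythroid genes 4 were higher and 4 lower (17.4% each way), with a median of 0. These shares lie near those of all genes, 12% higher and 13.2% lower. Of the 21 erythroid genes that did not pass the filter through 1 group alone, 4 were higher and 2 lower. Car1, carbonic anhydrase 1 of red cells and their progenitors, went from 3.24, 1.51 and 1.74 FPKM to 21.2, 40.1 and 45.1 (log2 3.50, adjusted p = 4.336e-07). Slc4a1, the anion exchanger of the mature red cell membrane, was lower, at 2.74, 3.34 and 1.59 FPKM and then at 0.081, 0 and 0.0586 (log2 -1.73, adjusted p = 2.892e-07). Gata1, the factor that drives both lineages, lay between 6.1 and 6.6 FPKM in E16.5 FL and between 9.29 and 13.6 in 1w BM (log2 0.78, adjusted p = 0.004928). Of 17 tested platelet genes, 5 were higher and 3 lower (29.4% and 17.6%, median 0.12). Among them, Gp5, a chain of the von Willebrand factor receptor, was higher by 1.60 (adjusted p = 6.285e-06), and Pf4, platelet factor 4, by 1.65 (adjusted p = 0.00297). Of the 15 platelet genes that did not pass through 1 group alone, 3 were higher and 3 lower. Between 2 and 5 platelet genes were higher, and between 0 and 4 erythroid genes lower, when a library was left out. The erythroid genes called higher fell to 2 without 1w BM library 2 or 3. Hbb-b1, a beta globin, was called lower (log2 -2.97, adjusted p = 0.00898), a call lost at a pseudocount of 0.1, and near-identical globin genes can share reads. Hba-a1 was at 48.6, 0.029 and 33.4 FPKM within E16.5 FL, so the globin values are uncertain.

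**Figure D3:**
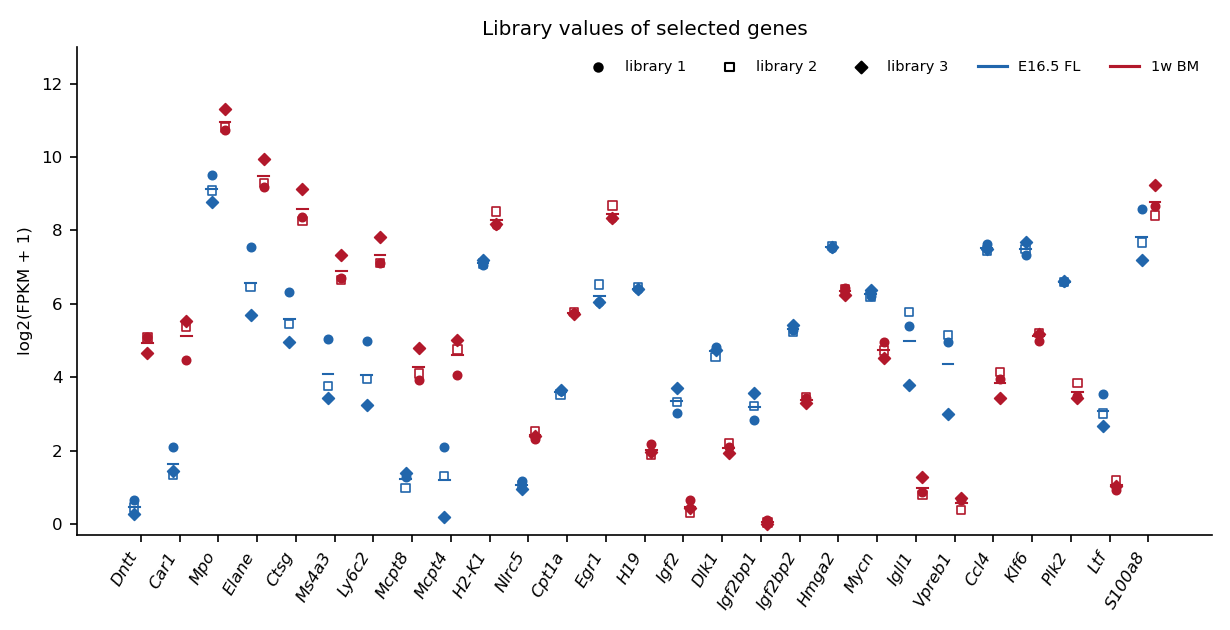
Values of 27 genes are drawn as log2(FPKM + 1) in the 3 E16.5 FL libraries (blue) and the 3 1w BM libraries (red), with a different marker for each library number and a line at the group mean. The groups stand apart for Dntt, Ctsg, H19 and Igf2bp1, for Igll1 and Vpreb1 the fetal libraries spread widely, and for S100a8 the groups overlap.

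Genes of the fetal HSC programme fell, but to different degrees. Of 12 tested genes, none was higher and 8 were lower in 1w BM, with a median log2 difference of -0.98. Igf2bp1, an RNA-binding protein made in fetal tissues, went from 6.07, 8.32 and 10.8 FPKM to 0.0843, 0.0258 and 0 (log2 -3.15, adjusted p = 6.045e-14). Its relative Igf2bp2 went from 38, 36.4 and 42.1 to 9.76, 9.96 and 8.74 (log2 -1.92, adjusted p = 9.362e-12). The third relative, Igf2bp3, was at 44.1, 48.4 and 44.4 FPKM and at 37.6, 33.7 and 42.5, which did not pass the test (log2 -0.27, adjusted p = 0.06856), although it was called without 1w BM library 3 or E16.5 FL library 3. So at 1 week Igf2bp1 was near 0 while Igf2bp3 was still at 33.7 to 42.5 FPKM, against 44.1 to 48.4 in E16.5 FL. Lin28b, a block to let-7 microRNA maturation, lay between 11.6 and 14.8 FPKM in E16.5 FL and between 4.54 and 5.38 in 1w BM (log2 -1.23, adjusted p = 6.014e-06). Hmga2, a chromatin protein and let-7 target, went from 184, 189.8 and 188 to 84.6, 84 and 74.3 (log2 -1.20, adjusted p = 1.259e-06). Both were still clearly detected at 1 week, with no overlap between the groups. Mycn, a Myc family factor of fetal cells, was lower by -1.53 (adjusted p = 4.31e-05) and Arid3a, a factor of fetal B cell production, by -0.74 (adjusted p = 7.469e-05). Hmga1 and Ezh2 were not called, at log2 differences of -0.27 and -0.09. Of the 12 genes, 2 passed the filter through E16.5 FL alone, and among the other 10 genes 6 were lower. Leaving out an E16.5 FL library also removed genes from the filter. Without libraries 1, 2 and 3, 6, 6 and 7 of 10 tested genes were lower.

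Imprinted genes, which are transcribed from 1 parental copy and many of which control fetal growth, were mostly lower. Of 21 tested genes, 15 were lower and none was higher, with a median log2 difference of -0.76. H19, a noncoding RNA of the Igf2 domain, had the largest fall of all genes, from 82.9, 86.3 and 83 FPKM to 3.53, 2.67 and 2.87 (log2 -4.41, SE 0.297, adjusted p = 2.311e-10). Its neighbour Igf2, the growth factor, went from 7.18, 9 and 12.1 to 0.564, 0.236 and 0.354 (log2 -2.89, adjusted p = 3.432e-12). Both lie at chr7:142575529-142666816 and are expressed from opposite parental copies, and both fell. The same held for the cluster at chr12:109452823-109661716. There the paternally expressed Dlk1, a membrane ligand related to those of Notch, went from 27.1, 22.5 and 25.6 to 3.28, 3.62 and 2.83 (log2 -2.62, adjusted p = 1.218e-13), and the maternally expressed noncoding RNAs Meg3 and Rian were lower by -1.86 and -2.12 (adjusted p = 3.004e-07 and 8.174e-09). Cdkn1c, a maternally expressed inhibitor of the cell cycle, went from 16.4, 15.8 and 16.2 to 5.55, 4.41 and 4.43 (log2 -1.57, adjusted p = 4.33e-07). Igf2r, the receptor that removes Igf2, was lower by -0.89 and Ndn, necdin, by -0.95. The fetal libraries agreed closely for H19, Dlk1 and Cdkn1c, unlike the B lineage genes. Of the 21, 5 passed the filter through E16.5 FL alone, and among the other 16 genes 10 were lower. Without a fetal library, 10, 10 and 9 of 16 tested were lower.

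Several of these transcripts and 2 other hosts carry microRNAs, and their mature sequences are given because the seed sets which messages a microRNA can pair with. Capitals mark the seed, bases 2 to 8, in RefSeq mature sequences on GRCm38.p6. The lines give miR-675 of H19 at chr7:142577112-142577133, miR-370 of Rian at chr12:109618305-109618326, miR-155 of Mir155hg at chr16:84714143-84714165 and miR-22 of Mir22hg at chr11:75463772-75463793.
miR-675-5p: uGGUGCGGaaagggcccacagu
miR-370-3p: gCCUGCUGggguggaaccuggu
miR-155-5p: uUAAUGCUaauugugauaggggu
miR-22-3p: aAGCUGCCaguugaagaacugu
None of these shares its seed with another. Mature microRNAs were not measured here, only their host transcripts. Mir155hg, which carries a microRNA induced in activated leukocytes, was at 6.6, 4.51 and 3.47 FPKM and at 0.442, 1.32 and 1.09 (log2 -1.58, adjusted p = 2.824e-05). Mir22hg was lower by -0.84 (adjusted p = 0.009212), a call lost without 1w BM library 1. Mir17hg, the host of the miR-17 cluster, was at 13.2, 13.7 and 13.3 FPKM and at 9.83, 10.4 and 10.1 and did not pass the test (adjusted p = 0.06661).

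HSC genes were divided. Of 26 tested genes of HSC identity, 2 were higher and 11 lower, with a median log2 difference of -0.26. Fgd5, a marker of HSCs, was at 14.4, 16.1 and 20.3 FPKM and at 7.53, 7.2 and 4.68 (log2 -1.27, adjusted p = 6.64e-05). Mecom, a factor needed to keep HSCs, was at 14.7, 12.9 and 16.1 and at 7.24, 7.65 and 5.81 (log2 -0.98, adjusted p = 0.0004324). Esam, an adhesion protein of HSCs and endothelium, was lower by -0.97, Mllt3 by -0.65, and Procr, another HSC surface marker, was only at the edge of the test (log2 -0.61, adjusted p = 0.04666), its call lost without any 1 of the 6 libraries. Gata2, which keeps HSCs and early progenitors, moved the other way, from 36.3, 39.7 and 41.8 FPKM to 62, 77 and 65.7 (log2 0.78, adjusted p = 3.585e-05). Kit, the stem cell factor receptor, was at 102, 109 and 139 and at 138, 136 and 128, and Meis1 at 44.8, 42.5 and 53.2 and at 52.2, 56.6 and 40.8. Neither was called, and for both the groups overlapped. The list varied between libraries, since 1w BM library 3 was the lowest marrow library for 22 of the 26 genes and E16.5 FL library 3 the highest fetal library for 19. The same 2 libraries were the highest in 1w BM and the lowest in E16.5 FL for most genes of the primary granule list. Without 1w BM library 3 and without E16.5 FL library 3, 7 and 6 HSC genes were lower.

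Of 36 tested transcription factors of blood cells, 12 were higher and 3 lower (median 0.08). Among the 35 that did not pass the filter through 1 group alone, 12 were higher and 2 lower. Only 8 were higher without 1w BM library 2, 1w BM library 3 or E16.5 FL library 3. Besides Cebpa, Cebpe, Gata1 and Gata2, Myb, which keeps progenitors dividing, went from 148, 158 and 156 FPKM to 204, 199.9 and 228 (log2 0.44, adjusted p = 0.002627). Nfe2, a factor of red cells and platelets, was higher by 0.45 (adjusted p = 0.006992). Of 14 tested Hox and cofactor genes, 3 were lower and none higher. Hoxa5 was at 37.1, 31.8 and 31 FPKM and at 14.7, 15.9 and 10.2 (log2 -1.25, adjusted p = 1.82e-07), and Hoxa9, a factor of HSC self-renewal, was lower by -0.50 (adjusted p = 0.00657).

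Cell cycle genes gave a mixed picture at 1 week. Of 42 tested mitosis genes, 2 were higher and 4 lower, with a median of -0.03. None of them was higher without 1w BM library 3, E16.5 FL library 1 or E16.5 FL library 3, and 2 were lower without 1w BM library 2 or E16.5 FL library 2. Of 42 tested DNA replication genes, 11 were higher and none lower, with a median of 0.16 and 35 of 42 above 0. Tk1, thymidine kinase, went from 45.2, 51 and 42.6 FPKM to 63.6, 65.3 and 74.6 (log2 0.54, adjusted p = 0.0001142), the largest difference of the list. Fen1, the flap endonuclease, was higher by 0.42 (adjusted p = 0.001925) and Tyms, thymidylate synthase, by 0.35 (adjusted p = 0.002965). The count depended on single libraries, with 4 genes higher without 1w BM library 3 and 6 without E16.5 FL library 3. Kif23, a kinesin of cell division, was lower by -0.39 (adjusted p = 0.006395) and Cenpa, the centromeric histone, by -0.36 (adjusted p = 0.005887), while Top2a, at 153, 151 and 149.5 and at 135, 128 and 136, was not called. The lists differ in promoter sequence. TTTGAA, the core of the cell cycle homology region, was found on either strand in 25 of 36 mitosis promoters (69.4%) and in 4 of 35 DNA replication promoters (11.4%), against 12% of promoters matched to genes of the comparison and 18.1% of all.

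Of 23 tested cell cycle inhibitors and quiescence genes, 10 were lower in 1w BM and 1 was higher (median -0.34). Klf6, a zinc finger factor, went from 159, 179.7 and 206 FPKM to 30.9, 35.7 and 34.9 (log2 -2.38, adjusted p = 5.935e-07). Cdkn1b, the inhibitor p27, was at 32.3, 30.9 and 27.5 and at 22.3, 22.4 and 18.8 (log2 -0.50, adjusted p = 0.0008989). Btg1, an antiproliferative factor, was lower by -1.18 and Foxo1, a factor of quiescence and stress resistance, by -1.25. The 10 became 9 or 10 when a library was left out. Of the cyclins, Ccnd2 was at 44.1, 41.4 and 46.7 FPKM and at 66.8, 63.8 and 62 (log2 0.53, adjusted p = 0.001036), whereas Ccnd1 and Ccnd3 were not called (log2 0.07 and -0.06). In the Myc network, Mxd1, an antagonist of Myc, was lower by -1.53 (adjusted p = 1.825e-05) and Mnt, another antagonist, by -0.80 (adjusted p = 0.0009133). Myc itself was at 58.5, 63 and 66.3 and at 85.9, 73.3 and 97.3 (log2 0.44, adjusted p = 0.01455), a call lost without 1w BM library 3 or E16.5 FL library 1.

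Antigen presentation genes rose together. Of 20 tested genes of MHC class I and its peptide supply, 15 were higher and none lower, with a median log2 difference of 0.56 and all 20 above 0, and 11 to 14 were higher when a library was left out. H2-K1, a classical class I heavy chain, went from 133, 136 and 145 FPKM to 285, 365 and 287 (log2 1.16, SE 0.076, adjusted p = 1.516e-10), and H2-D1, the other, from 119.7, 109.9 and 115 to 242, 282 and 226 (log2 1.11, adjusted p = 1.85e-09). B2m, the shared light chain, was already high and went from 709, 577 and 578 to 809, 959 and 839 (log2 0.49, adjusted p = 0.006416). In each, 1w BM library 2 was the highest. Nlrc5, the transactivator of class I genes, rose from 1.24, 1.07 and 0.946 FPKM to 4.01, 4.78 and 4.26 (log2 1.36, adjusted p = 2.645e-08). The peptide transporter Tap1 was higher by 0.84 (adjusted p = 1.597e-07) and Psmb8, an immunoproteasome subunit, by 0.76 (adjusted p = 7.226e-05). Class I genes are close relatives and can share reads. Of 9 tested class II genes, 5 were higher and none lower (median 0.89). H2-Ab1 went from 7.6, 8.95 and 5.42 FPKM to 24.5, 19.6 and 26.5 (log2 1.57, adjusted p = 0.001156), and Cd74, the invariant chain, was at 11.3, 20.1 and 9.64 and at 26.4, 25.6 and 36.3, just outside the test (adjusted p = 0.05273).

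The interferon response list as a whole moved little. Of 53 tested genes, 10 were higher and 1 lower, with a median of 0.15. Only 6 were higher without 1w BM library 2 and 5 without 1w BM library 3. The strongest were a neighbouring pair of GTPases induced by interferon gamma on chromosome 11. Ifi47 went from 7.4, 11.3 and 10.2 FPKM to 29.6, 29.4 and 31.6 (log2 1.57, adjusted p = 2.621e-07) and Tgtp2 from 3.22, 3.36 and 3.03 to 13, 9.78 and 12.1 (log2 1.58, adjusted p = 1.82e-07). The promoters of B2m (chr2:122147437-122147685, plus strand) and Tgtp2 (chr11:49064213-49064462, minus strand) are shown, from the same RefSeq source, with the interferon-stimulated response element core GAAANNGAA in capitals, since both genes are induced by interferon and differed in size of change.
B2m: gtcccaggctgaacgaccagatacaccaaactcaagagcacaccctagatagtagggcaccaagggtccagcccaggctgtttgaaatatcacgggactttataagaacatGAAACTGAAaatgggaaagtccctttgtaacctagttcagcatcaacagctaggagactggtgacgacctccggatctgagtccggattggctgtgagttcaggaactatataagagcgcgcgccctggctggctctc
Tgtp2: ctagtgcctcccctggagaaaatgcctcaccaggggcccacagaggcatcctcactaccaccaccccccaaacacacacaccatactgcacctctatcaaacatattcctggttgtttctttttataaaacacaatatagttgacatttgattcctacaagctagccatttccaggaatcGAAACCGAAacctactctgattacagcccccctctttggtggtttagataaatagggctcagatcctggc
The match began 139 bases before the start of B2m and 70 before that of Tgtp2. The letters occur, on either strand of the 300 bases, in 24 of 38 interferon response promoters (63.2%) and in 4 of 14 MHC class I promoters (28.6%). They occur in 7.1% of promoters matched to genes of the comparison and in 8.6% of all, and no match was found in the 250 bases before Ifi47.

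Immediate-early genes, induced within minutes to hours of a stimulus, changed in both directions. Of 29 tested immediate-early genes, 3 were higher and 9 lower (median -0.35). Egr1, a zinc finger factor of this class, went from 64.8, 91.2 and 65.8 FPKM to 325, 409 and 320.4 (log2 2.24, adjusted p = 4.692e-07). Egr2, which passed the filter through 1w BM alone, was higher by 0.93 (adjusted p = 0.005086). Fosb was the third, and without 5 of the 6 libraries in turn its call was lost. Dusp5, a phosphatase that switches off ERK, went from 269.6, 242 and 229 to 51, 72.5 and 40.3 (log2 -2.19, adjusted p = 1.597e-07), and Atf3, a stress-induced factor, was lower by -2.27 (adjusted p = 0.002495). Nr4a1, an orphan receptor induced by the same signals, was at 428, 426 and 412 and at 254, 429.9 and 203 and was not called. 1w BM library 2 was the highest marrow library for 28 of the 29 genes, and without it 1 gene was higher and 11 were lower.

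Of 18 tested targets of NF-kB, 8 were lower and none higher (median -0.50), with 9 lower and 2 higher at an unadjusted p under 0.05. Among the 17 that did not pass the filter through 1 group alone, 7 were lower. Ccl4, a chemokine that attracts leukocytes, went from 197, 174 and 179.5 FPKM to 14.4, 16.6 and 9.69 (log2 -3.69, adjusted p = 8.303e-10), and its neighbour Ccl3 from 208, 218 and 235 to 34, 41.6 and 38.8 (log2 -2.50, adjusted p = 3.693e-11). Cxcl10, a chemokine induced by interferon, was lower by -2.56 (adjusted p = 4.148e-05). Tnf was at 18.5, 24.3 and 38.8 and at 17.2, 19.6 and 16 and was not called. With 1w BM library 1, 1w BM library 3 or E16.5 FL library 2 left out, 5 of the NF-kB targets were lower.

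Several stress-induced genes were lower in 1w BM. Of 22 tested p53 targets, 1 was higher and 5 lower (median -0.15). Plk2, a kinase induced by p53 and by serum, went from 95.4, 96.2 and 97.2 FPKM to 10.2, 13.4 and 9.75 (log2 -3.02, adjusted p = 6.608e-08), and Mdm2, the ligase that degrades p53, was lower by -0.60 (adjusted p = 8.67e-05). Of 26 tested genes of ER stress, 4 were higher and 6 lower (15.4% and 23.1%, against 12% and 13.2% of all genes, median 0.03). Hspa5, the chaperone BiP, went from 845, 757 and 553 to 324, 368 and 354 (log2 -1.02, adjusted p = 0.0001176). Ddit3, the factor CHOP, went from 94.7, 65.6 and 47.7 to 10, 21 and 14.4 (log2 -2.12, adjusted p = 2.396e-05). Of 22 tested heat shock genes 1 was higher and 9 lower (median -0.25), but 5 were lower without 1w BM library 1 and 3 without E16.5 FL library 2. Of 18 tested hypoxia genes, 2 were higher and 7 lower (median -0.19). Egln3, a prolyl hydroxylase induced by low oxygen, went from 49.8, 52.9 and 62.7 FPKM to 22.2, 21.7 and 20.5 (log2 -1.32, adjusted p = 7.94e-09). The glucose transporters Slc2a1 and Slc2a3 were lower by -0.85 and -0.91 (adjusted p = 2.518e-05 and 9.865e-06).

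Among metabolic genes, the largest rise in the fatty acid oxidation list was that of Cpt1a. It encodes the carnitine transferase that admits fatty acids to mitochondria and went from 11.4, 10.6 and 11.5 FPKM to 53, 53.5 and 51.7 (log2 2.14, SE 0.108, adjusted p = 1.295e-12), with little spread in either group. Of 17 tested genes of the list, 9 were higher and none lower, with a median of 0.23. Etfb, which passes electrons from the oxidation enzymes, was higher by 0.94 (adjusted p = 1.747e-05) and Acaa2, the last enzyme of the spiral, by 0.58 (adjusted p = 1.825e-05). Only 5 genes were higher without 1w BM library 1, 1w BM library 3 or E16.5 FL library 1. Of 40 tested oxidative phosphorylation genes, 2 were higher and none lower (median 0.11), with 4 and 2 at an unadjusted p under 0.05. Of 24 tested glycolysis genes, 6 were higher, 3 of them without 1w BM library 3, and 4 were lower. These were 25% and 16.7% of the list, against 12% and 13.2% of all genes.

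**Figure D4:**
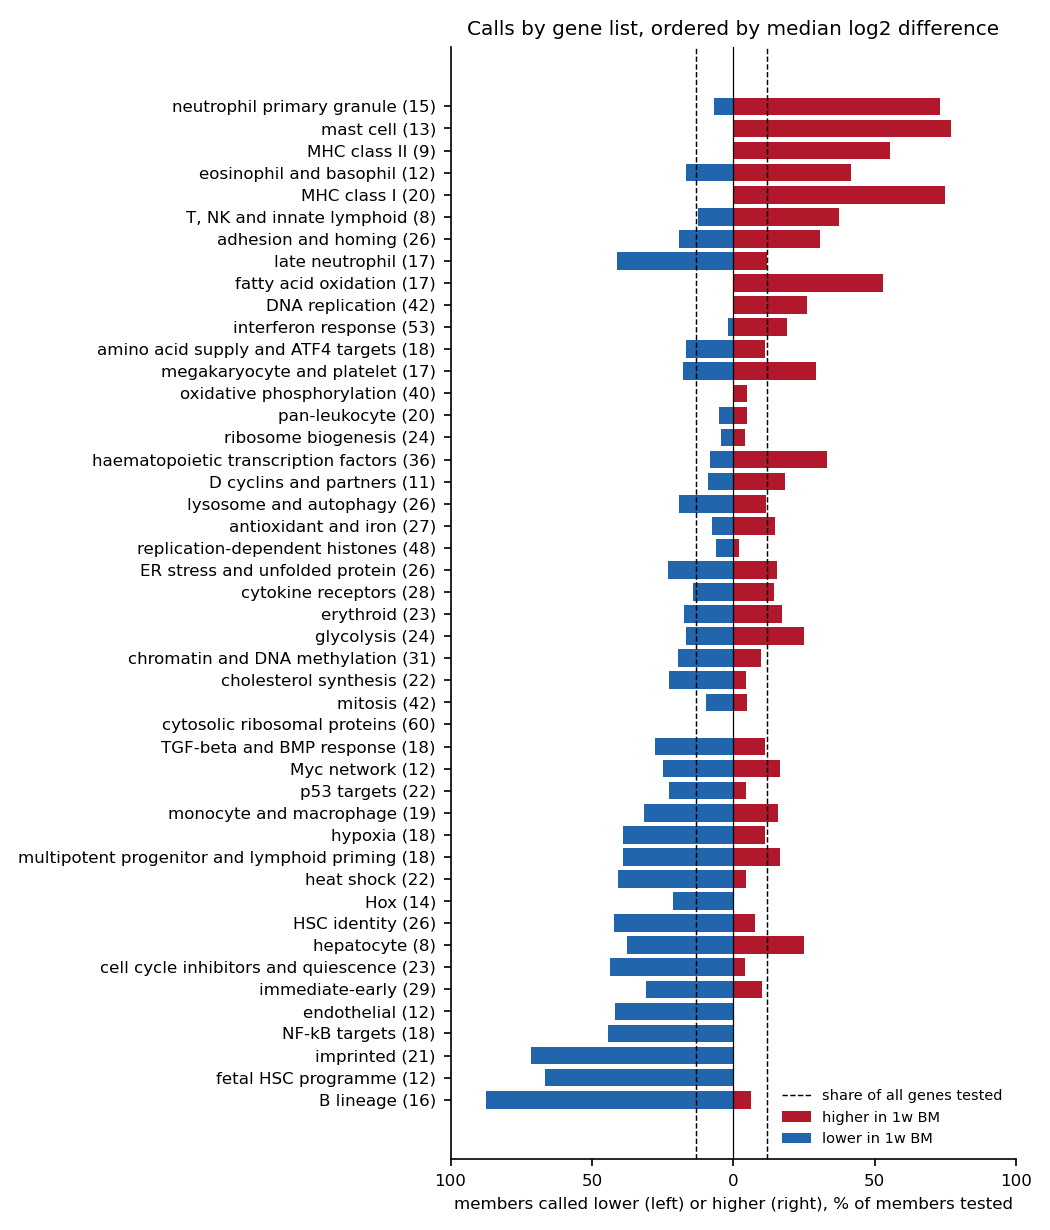
Bars give the share of tested members of each gene list called higher (right, red) or lower (left, blue) in 1w BM, with the number tested in brackets. The globin list (3 tested) and the marrow stroma and bone list (4 tested) are not drawn. Lists are ordered by median log2 difference, and dashed lines mark the shares of all genes tested (12% higher and 13.2% lower). Primary granule, mast cell and class I genes reach furthest to the right, and B lineage, imprinted and fetal programme genes furthest to the left.

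The most abundant transcripts did not separate the groups. The 10 genes with the highest mean level, Eef1a1 and 9 ribosomal protein genes, were all not called, and of 60 tested cytosolic ribosomal protein genes none was called by limma in either direction (median -0.05), and none had an unadjusted p under 0.05. Rps27 and its near-identical copy Rps27rt, which can share reads, varied in opposite ways between libraries. Rps27 was at 12.9, 11.4 and 269.6 FPKM and at 1403, 1249 and 96.7, and Rps27rt at 4148, 3349 and 2637 and at 1289, 1430.1 and 2762, so neither can be read alone. Among the 5 largest absolute falls of called genes were H3f3a, a replacement histone, from 1481, 1336 and 1204 to 936, 932 and 1026 (log2 -0.47, adjusted p = 0.0009532), and Eif1, an initiation factor, lower by -0.60 (adjusted p = 0.0004353).

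Markers of the surrounding tissue differed from list to list. Alb, albumin of hepatocytes, was at 4.13, 2.93 and 3.68 FPKM in E16.5 FL and at 0.0505, 0 and 0 in 1w BM (log2 -2.16, adjusted p = 1.82e-07), and Afp, alpha-fetoprotein, was lower by -1.38 (adjusted p = 0.0003115). Both passed the filter through E16.5 FL alone. Of 22 hepatocyte genes in the table only 8 passed the filter, 2 of them called higher and 3 lower. Among the 6 other than Alb and Afp 2 were higher and 1 lower (median 0.11). Leaving out an E16.5 FL library also removes Alb and Afp from the filter. Without libraries 1, 2 and 3, 0 of 5, 1 of 5 and 0 of 6 tested genes were lower. The summed level of all 22 was 228.6 to 278.2 FPKM in E16.5 FL and 198.8 to 245.9 in 1w BM. Of 21 stroma and bone genes 17 did not pass, including Col1a1, Cxcl12 and Lepr. Of 12 tested endothelial genes, which HSCs partly share, 5 were lower (median -0.37), while Cdh5 and Kdr did not pass. With no filter, 3 of 22 hepatocyte genes were called higher and 9 lower. Of 17 stroma and bone genes, 1 was then higher and 1 lower, and of 20 endothelial genes 0 were higher and 8 lower. Of 20 pan-leukocyte genes 1 was higher and 1 lower. Adhesion genes changed in both directions, 8 of 26 higher and 5 lower, with 5 higher without E16.5 FL library 2. Jam3, a junctional adhesion protein, was lower by -1.32 (adjusted p = 5.935e-07) and S1pr1, the receptor for egress into blood, by -1.36 (adjusted p = 0.0001537). Alcam was higher by 1.30 (adjusted p = 4.032e-07) and Selplg, the ligand of selectins, by 0.54 (adjusted p = 0.0006928).

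Over the other ages the changed genes took different courses, given here as group means (SD, n = 3). Dntt was at 0.377 ± 0.18 FPKM in E16.5 FL, 2.67 ± 0.704 in Perinatal BM, 30.1 ± 4.86 in 1w BM and 145 ± 31.3 in 8w BM. Cpt1a was at 11.2 ± 0.533 in E16.5 FL, and already at 56.2 ± 4.71 in Perinatal BM, 52.7 ± 0.967 in 1w BM and 56.7 ± 3.67 in 8w BM. So Dntt was still below its later level at 1 week, whereas Cpt1a stood at its later level from the perinatal libraries on. H2-K1 was at 138 ± 6.25, 255 ± 0.593, 312 ± 45.4 and 738 ± 8.56 in the same groups. H19 was at 84.1 ± 1.95, 15.7 ± 14.2, 3.02 ± 0.451 and 0.287 ± 0.18. Igf2bp3 was at 45.6 ± 2.39, 47.5 ± 1.73, 37.9 ± 4.39 and 0.74 ± 0.3, so its fall lay after 1 week, where that of Igf2bp1 lay before. Igll1 was at 0.1 ± 0.0986 in E12.5 FL, 35.7 ± 20.9 in E16.5 FL, 3.6 ± 5.14 in Perinatal BM and 0.988 ± 0.363 in 1w BM. Klf6 and Ccl4 had their lowest mean of the 8 liver and marrow groups in 1w BM, at 33.9 ± 2.59 and 13.6 ± 3.53, and were at 263 ± 44.9 and 125 ± 12.6 in 3w BM.

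**Figure D5:**
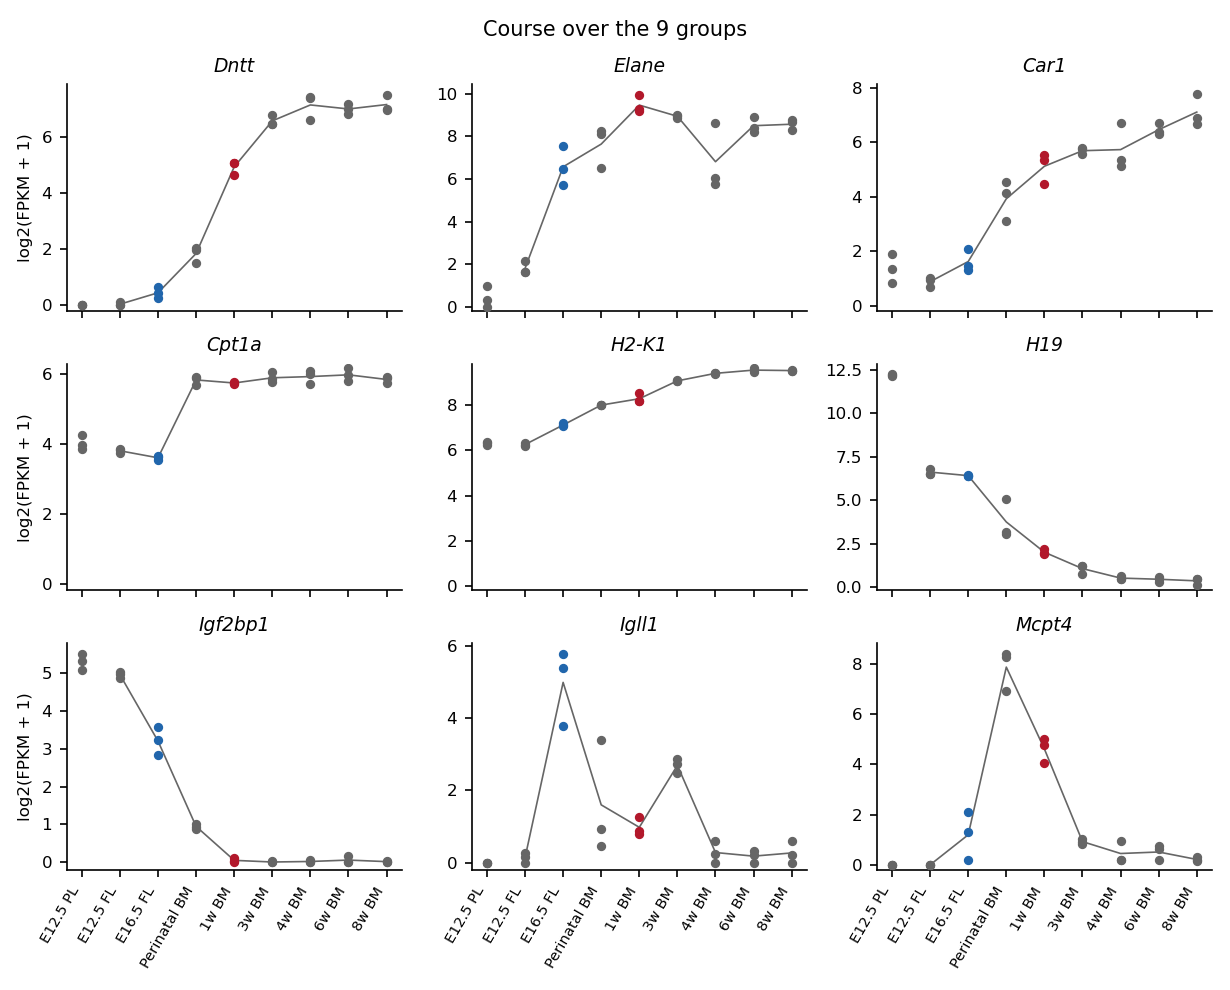
Each panel shows 1 gene as log2(FPKM + 1) in the 3 libraries of each of the 9 groups, with the line through the group means from E12.5 FL on, E16.5 FL in blue and 1w BM in red. Dntt, Car1 and H2-K1 climb past 1w BM, Cpt1a is level from Perinatal BM on, H19 and Igf2bp1 descend, and Mcpt4 peaks in Perinatal BM at 255 ± 117 (SD, n = 3).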

How the data were processed

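The series holds bulk RNA-seq of HSPCs, 9 groups of 3 libraries. Per the labels' protocols, Tri Pure reagent was used for extraction and a TruSeq kit for the libraries. GRCm38, STAR 2.7, HTSeq 0.6.1p1, FastQC and Trim Galore are listed in the submitters' processing notes. Values were taken as FPKM, as deposited by the authors. The annotation is not given in the sources used here, nor is the tool that computed FPKM. No counts were used, so the depth is unknown and no counting interval is given. Low values of a few genes are therefore less certain than their FPKM shows.

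FPKM were transformed to log2(FPKM + 1), and every difference is on that scale, which understates changes of low genes. Genes at 1 FPKM or more in at least 3 of the 6 libraries were fitted by limma 3.58.1 (R 4.3.3, eBayes with trend) as 9 group means over all 27 libraries, leaving 18 residual degrees of freedom. Benjamini-Hochberg adjustment ran over the 11398 genes, with a threshold of 0.05. No set test was run. Of the 48 lists with 1166 distinct genes, 994 genes were tested. Positions come from GENCODE M21 and sequences from RefSeq. Python 3.11.15, pandas 2.3.3 and matplotlib 3.10.9 were used for the rest.

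Replicate numbers did not pair the libraries (correlations of residuals -0.19, -0.05 and -0.17 for numbers 1, 2 and 3), so no block was used. Named were the 14 genes of largest difference each way among called genes whose higher group averaged 5 FPKM or more and whose libraries did not overlap, up to 8 members of a list, and genes with the highest level or largest absolute change; clone names and date-like names were not named. The genes and lists were chosen with earlier results of these data known. Adhesion, tissue and sex-linked examples, library orderings and the GAGGAA motif were picked after values were seen. Alternatives were pseudocounts of 0.1 and 5, no filter, a filter at 5 FPKM, scaling by median of ratios, fits restricted to the 6 libraries or leaving out E12.5 PL, a replicate block, and leaving out each library. A comparison of protein sequences was not run, and some genes that qualified are not reported here.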

Additional observations from a re-analysis of the deposited data

How the results depend on the processing

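Every called gene named here kept its direction in all alternatives that tested it, and of the others named, Ccnd1 and Meis1, near 0 throughout, changed sign in some. Of the 141 genes named, 121 were called, and 112 of these stayed called in every alternative that tested them. The 2869 changed genes became 2278 to 3266 under the alternatives that kept all 6 libraries. The replicate block gave 2858 called genes, 371 of them at least 2-fold, and moved no list count by more than 1.5 times except 1 more gene called higher in each of NF-kB targets and ribosome biogenesis. The count of genes changed at least 2-fold, 371, depended on the scale, being 587 with a pseudocount of 0.1, 157 with a pseudocount of 5 and 246 with a filter at 5 FPKM. The higher part of it, 159, became 280, 72 and 103, and the lower part, 212, became 85 with a pseudocount of 5. When 1 library was left out, 2010 to 2360 genes changed, 881 to 1122 of them higher and 988 to 1288 lower, and 317 to 382 changed at least 2-fold, 119 to 182 higher and 160 to 240 lower. For 8w BM against E12.5 FL, 6287 changed genes became 5016 to 7044 under all alternatives. The number of lists whose tested members were called in 1 direction at least as often as not, 8, lay between 6 and 12. With 3 libraries a group and unknown depth, small differences and genes near 1 FPKM are the least certain.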
